A study of Homo sapiens with 3 samples.

Results

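The genes described here are 7 matrix metalloproteinases (MMP1, MMP3, MMP7, MMP9, MMP10, MMP13 and MMP14) together with PLAU and PLAUR, the plasminogen activator urokinase and its receptor. These 9 genes were picked by symbol from the 58735 features of each library, and each symbol matched 1 feature. They were measured by droplet single-cell RNA sequencing from the 3′ end of transcripts in FaDu, an established line from a human hypopharyngeal squamous carcinoma, and in a FaDu subline selected for resistance to TPF. TPF stands for paclitaxel, cisplatin and 5-fluorouracil, and cinobufotalin is a bufadienolide steroid of toad venom. FaDu cells that received cinobufotalin gave the FaDu library, resistant cells that received TPF gave the TPF library, and resistant cells that received both gave the combination library. The subline thus carries its drug selection in both of its libraries, and neither dose, duration nor number of clones is given in the labels.

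Each group was 1 library, so no difference was tested and no spread between cultures could be measured. Every interval below is a 95% interval that covers counting error only, and library and treatment cannot be told apart. No library held FaDu cells without cinobufotalin or resistant cells without TPF. In both pairs against FaDu the subline and its treatment therefore cannot be told apart either. The kept cells numbered 4862 to 7525 per library and held 134802289 to 165847771 UMIs (unique molecule counts), with medians of 17867 to 27920.5 UMIs per cell. Between 9 and 13 cell barcodes were shared by any pair of libraries. All 11 squamous epithelial markers passed a mean of 5 CPM (counts per 1e6 UMIs of the library), and their summed level was 6716 CPM in the FaDu library, 4917 CPM in the TPF library and 3767 CPM in the combination library. None of 10 fibroblast and 14 immune markers did, with summed levels of 3.50 to 7.58 CPM and 5.67 to 7.18 CPM, and COL1A2, LUM, C1QA, C1QB, MS4A1 and FCGR3A were at 0 UMIs in all 3 libraries. Of 9 endothelial markers ERG alone passed, and their summed level was 14.8, 26.3 and 30.0 CPM in the same order. MALAT1, a nuclear noncoding RNA, had a median share per cell of 0.0892% in the FaDu library against 0.795% and 0.731% in the TPF and combination libraries, and levels in cells matched on this share are given with the results.

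Matrix metalloproteinases are zinc enzymes that cut collagens, laminins and other proteins of the extracellular matrix, and most are secreted as inactive proenzymes. Urokinase, held at the cell surface by its receptor, turns plasminogen into plasmin, which cuts fibrin and can activate several of these proenzymes. In squamous carcinoma these proteases are known for their part in the breakdown of basement membrane and stroma at the invading edge. Many of the secreted enzymes are encoded in a cluster on chromosome 11, and AP-1, the dimer of FOS and JUN family proteins, is a known regulator of several of them and of urokinase and its receptor.

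In the cluster, MMP7 lies at chr11:102520508-102530753, MMP10 at chr11:102770503-102780628, MMP1 at chr11:102789920-102798160, MMP3 at chr11:102835801-102843803 and MMP13 at chr11:102942995-102955734. All 5 are on the minus strand of GRCh38, within 435.2 kb that hold 9 MMP genes (GENCODE release 29). The other 4 members are on other chromosomes, PLAU at chr10:73909177-73917497, MMP14 at chr14:22836557-22849027, PLAUR at chr19:43646095-43670547 and MMP9 at chr20:46008908-46016561. PLAU, MMP14 and MMP9 are on the plus strand and PLAUR is on the minus strand.

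The RefSeq promoter table (GRCh38.p14) held MMP7, MMP10, MMP14, PLAU and PLAUR, with PLAU present at 2 start sites. Promoters of MMP10 and MMP7 are shown because both are in the cluster and hold matches to an AP-1 and a TATA motif at nearly the same places. Under CPM their levels differed from the FaDu library in opposite directions, MMP10 by little more than the median gene and MMP7 at few counts. Each run gives the 200 bases before the start site, 5′ to 3′ on the minus strand, from chr11:102780629-102780828 for MMP10 and chr11:102530748-102530947 for MMP7. Capitals mark matches to the AP-1 motif TGANTCA, the TATA box TATAAA and the ETS motif AGGAAG on either strand, so that an ETS match on the other strand reads CTTCCT.
MMP10: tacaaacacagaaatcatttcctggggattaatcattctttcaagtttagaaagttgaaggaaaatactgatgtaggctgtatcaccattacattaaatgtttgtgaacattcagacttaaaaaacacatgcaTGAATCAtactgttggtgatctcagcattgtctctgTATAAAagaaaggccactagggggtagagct
MMP7: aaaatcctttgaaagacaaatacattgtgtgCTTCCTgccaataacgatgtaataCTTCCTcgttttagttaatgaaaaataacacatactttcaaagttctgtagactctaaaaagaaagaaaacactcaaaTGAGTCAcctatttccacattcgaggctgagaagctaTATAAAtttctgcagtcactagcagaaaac

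In both promoters the AP-1 match began 67 bases before the start site, and it read TGAATCA in MMP10 and TGAGTCA in MMP7. The TATA match began 31 bases before the start site in MMP10 and 30 bases before it in MMP7. MMP7 also held 2 ETS matches, at 169 and 145 bases before the start, where MMP10 held none in its 300-base window. Among the 300-base windows of the other members, PLAUR held an AP-1 match 186 bases and an ETS match 15 bases before the start, PLAU held an ETS match 221 bases before 1 of its starts, and MMP14 held no match. No match overlapped another. Of all 35116 promoters in the table, 7.71% held the AP-1 letters, 11.5% the TATA letters and 33.6% the ETS letters. A match is a description of letters and not a bound site.

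The collagenase MMP1, which cuts fibrillar collagen, measured 45.8 CPM in the FaDu library (7596 UMIs), 113 CPM in the TPF library (15296 UMIs) and 111 CPM in the combination library (14929 UMIs). Both resistant libraries were above the FaDu library, and the resistant libraries lay within counting error of each other. The TPF library was 2.47-fold above the FaDu library (log2 ratio 1.30, interval 1.27 to 1.34) and the combination library 2.42-fold (log2 ratio 1.27, 1.23 to 1.31). The log2 ratio of combination over TPF was -0.03 (-0.06 to 0.00).

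The stromelysin MMP3, which cuts proteoglycans and laminin and can activate proMMP1, measured 8.34 CPM (1383 UMIs) in the FaDu library, 32.3 CPM (4371 UMIs) in the TPF library and 30.3 CPM (4091 UMIs) in the combination library. This was a difference from the FaDu library of 3.88-fold (log2 ratio 1.96, 1.87 to 2.04) for TPF and 3.64-fold (log2 ratio 1.86, 1.78 to 1.95) for the combination. The ratio of TPF over FaDu stood above that of 98.5% of the genes tested, those with a mean of at least 1 CPM. Between the resistant libraries the log2 ratio was -0.09 (-0.15 to -0.03), and without the 10 cells of each library that held most MMP3 UMIs it was 0.05, so a few cells set its sign.

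MMP10, the other stromelysin of the cluster, measured 16.6 CPM in the FaDu library, 26.7 CPM in the TPF library and 26.5 CPM in the combination library. Its log2 ratio was 0.69 (0.62 to 0.76) for TPF over FaDu and 0.68 (0.61 to 0.75) for the combination over FaDu, and -0.01 (-0.08 to 0.06) between the resistant libraries. Both ratios over FaDu were close to the middle of all genes, above those of 65.8% and 66.6% of the genes tested. With TMM scaling, which sets library totals so that most genes do not differ, the ratios over FaDu were 0.12 and 0.16.

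MMP13, another collagenase, of wide substrate range, measured 17.2 CPM in the FaDu library, 15.3 CPM in the TPF library and 14.2 CPM in the combination library. It was thus lower in both resistant libraries, with log2 ratios over FaDu of -0.17 (-0.25 to -0.09) and -0.28 (-0.36 to -0.20), while the median gene was higher. The ratio of combination over TPF was -0.11 (-0.20 to -0.02), but it was 0.10 in cells thinned to 5000 UMIs and 0.04 in cells called S, so its direction depended on the setting. In cells called G1 it was -0.44.

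Matrilysin, MMP7, which lacks the hemopexin domain of most family members, was the sparsest of the 9 genes, with 258 UMIs in the FaDu library, 47 in the TPF library and 57 in the combination library. These counts gave 1.56, 0.348 and 0.423 CPM, so only the FaDu library reached 1 CPM, and its mean of 0.775 CPM was below the minimum for the genes tested. The FaDu library stood apart, with the TPF library 4.47-fold below it (log2 ratio -2.16, -2.64 to -1.71) and the combination library 3.68-fold below it (log2 ratio -1.88, -2.32 to -1.46). Between the resistant libraries the log2 ratio of 0.28 had an interval from -0.30 to 0.87, and no difference was detectable at this depth.

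MMP9, the gelatinase that cuts denatured collagen and type IV collagen of basement membrane, measured 2.18 CPM (361 UMIs) in the FaDu library, 6.55 CPM (885 UMIs) in the TPF library and 8.18 CPM (1103 UMIs) in the combination library. Here the 3 libraries were all apart by more than counting error. The log2 ratios over FaDu were 1.59 (1.41 to 1.77) and 1.91 (1.74 to 2.09). Under CPM, MMP9 was the only member tested that was higher in the combination library than in the TPF library. Its log2 ratio of 0.32 (0.19 to 0.45) stood above those of 96.8% of genes. With TMM scaling it was 0.37, and the ratios of MMP1 and MMP10 were also above 0, at 0.02 and 0.04. The ratio of MMP9 was 0.13 when each cell was thinned to 5000 UMIs.

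MMP14 is anchored in the membrane and activates proMMP2 at the cell surface. Its level was 12.1 CPM in the FaDu library, 16.0 CPM in the TPF library and 13.2 CPM in the combination library. The log2 ratios over FaDu, 0.41 (0.32 to 0.50) for TPF and 0.12 (0.03 to 0.22) for the combination, were below that of the median gene and became -0.16 and -0.40 with TMM scaling, so their direction depended on the scaling. Combination over TPF was -0.29 (-0.38 to -0.20). MMP2, its substrate, was counted at 30, 65 and 59 UMIs in the 3 libraries, or 0.181, 0.481 and 0.438 CPM.

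Urokinase, PLAU, measured 228 CPM (37836 UMIs) in the FaDu library, 336 CPM (45456 UMIs) in the TPF library and 286 CPM (38564 UMIs) in the combination library. The TPF library was highest and the FaDu library lowest, each apart by more than counting error. The log2 ratios over FaDu were 0.56 (0.54 to 0.58) and 0.33 (0.31 to 0.35), against -0.01 and -0.19 with TMM scaling, which turned their direction. Combination over TPF was -0.23 (-0.25 to -0.21).

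The urokinase receptor, PLAUR, ran the other way. It measured 282 CPM (46822 UMIs) in the FaDu library, 203 CPM (27488 UMIs) in the TPF library and 187 CPM (25191 UMIs) in the combination library. The log2 ratios over FaDu were -0.47 (-0.49 to -0.45) and -0.60 (-0.62 to -0.57), with 3.51% and 3.98% of the genes tested lower still. The receptor was thus lower in both resistant libraries under CPM while its ligand was higher, and with TMM scaling the receptor's ratios were -1.04 and -1.12. Combination over TPF was -0.12 (-0.15 to -0.10).

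**Figure D1:**
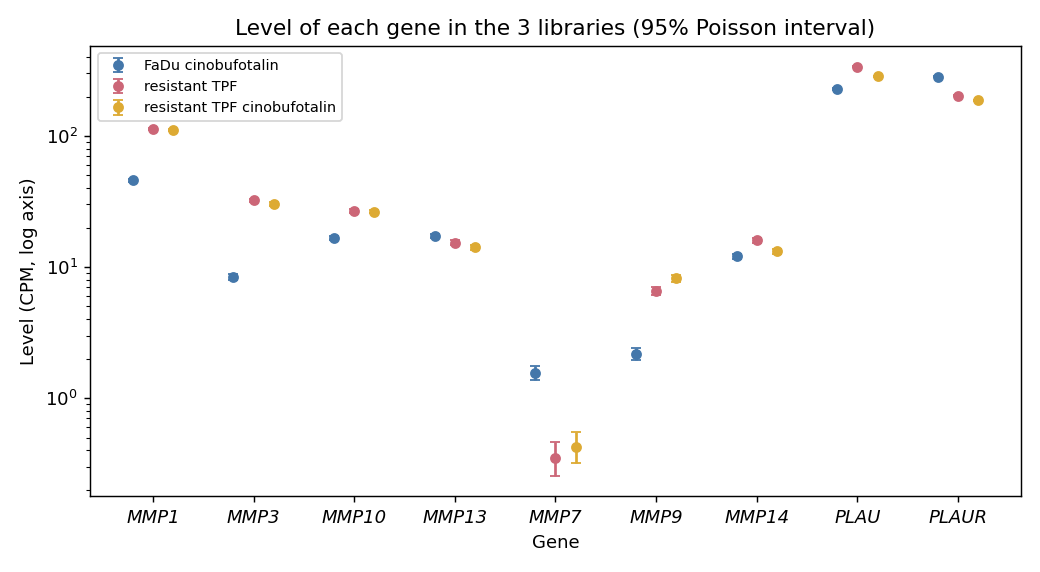
Level of each gene (CPM, log axis) in the FaDu cinobufotalin, resistant TPF and resistant TPF cinobufotalin libraries; points are library sums and bars 95% Poisson intervals. MMP1, MMP3 and MMP9 sit higher in both resistant libraries than in the FaDu library, MMP7 and PLAUR sit lower, and MMP13 is at 14.2 to 17.2 CPM in all 3.

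Set side by side, the 8 members that passed the minimum showed no 1.5-fold difference between the resistant libraries. That pair sets resistant cells given both agents beside resistant cells given TPF. In it 0 of 8 were at least 1.5-fold higher and 0 of 8 lower, where 0.43% of the 14656 genes tested were higher and 0.778% lower. At those shares a count of 0 among 8 genes is near the background. The median log2 ratio of the 8 was -0.10 against -0.06 for all genes tested. With TMM scaling the counts were again 0 and 0, against 0.6% and 0.498% of all genes.

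Against the FaDu library, 4 of 8 members (MMP1, MMP3, MMP9 and MMP10) were at least 1.5-fold higher in the TPF library and 0 were lower, where 41.0% of all genes tested were higher and 2.07% lower. The count of 4 is near the background share, since the median gene itself stood at a log2 ratio of 0.45 and the median of the 8 members at 0.62. In the combination library 4 of 8 were higher and 1, PLAUR, was lower, against 38.6% and 4.18% of all genes, with medians of 0.50 for the members and 0.40 for all genes. Both comparisons use the same FaDu library and are not independent of each other.

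TMM scaling moved the median gene by -0.57 in TPF over FaDu and by -0.52 in combination over FaDu. Under it 3 members (MMP1, MMP3 and MMP9) were higher and 2 (MMP13 and PLAUR) lower in each of these pairs, against backgrounds of 12.7% higher and 18.6% lower for TPF and 14.1% and 21.8% for the combination. Of all genes called in TPF over FaDu, 95.2% were higher under CPM and 40.5% under TMM, and in combination over FaDu 90.2% and 39.3%. Between the resistant libraries the higher share of calls was 35.6% under CPM and 54.7% under TMM. MMP1, MMP3, MMP9 and MMP7 kept their direction and at least 1.5-fold in both pairs against FaDu in all 14 alternatives run.

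**Figure D2:**
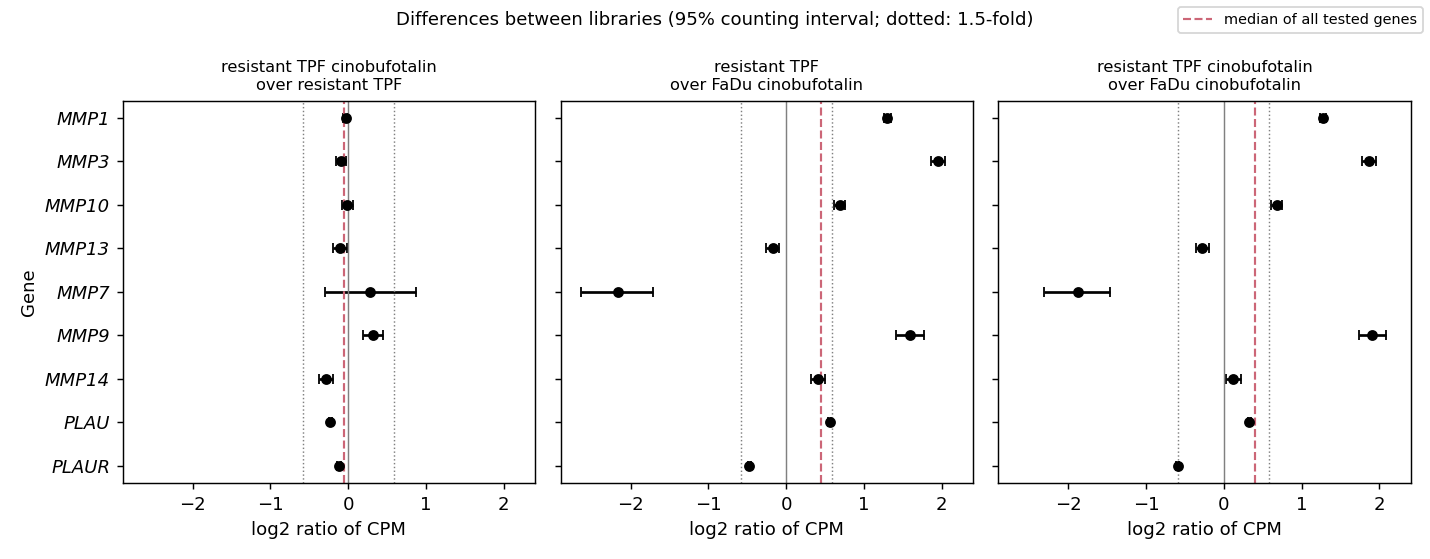
Log2 ratio of CPM for each gene in the 3 pairs of libraries; points are ratios, bars 95% counting intervals, dotted lines 1.5-fold and the dashed line the median of all genes tested. In the pair of resistant libraries all points lie within 1.5-fold, and in both pairs against FaDu MMP3, MMP9 and MMP1 lie furthest right of the median gene and MMP7 furthest left.

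Along chromosome 11, MMP10, MMP1 and MMP3 are neighbours, and all 3 were higher in both resistant libraries than in the FaDu library. MMP12, the macrophage elastase gene between MMP3 and MMP13, measured 5.29 CPM in the FaDu library, 4.34 CPM in the TPF library and 4.11 CPM in the combination library. Its log2 ratios over FaDu, -0.28 (-0.44 to -0.13) and -0.36 (-0.52 to -0.21), had the sign of those of MMP13. On the other side, MMP8 and MMP27 were at 1 UMI in each library apart from 3 UMIs of MMP27 in the combination library, and MMP20 was at 42 to 70 UMIs. The cluster therefore held genes that were higher, genes that were lower and genes close to no counts in the same libraries.

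WTAPP1, a transcribed pseudogene on the opposite strand at chr11:102746968-102836766, overlaps MMP10, MMP1 and MMP3. It measured 2.19 CPM in the FaDu library, 4.43 CPM in the TPF library and 5.73 CPM in the combination library. Its level was thus higher in the resistant libraries too, with log2 ratios over FaDu of 1.02 (0.83 to 1.21) and 1.39 (1.21 to 1.57). Of 50-base stretches of annotated transcripts, WTAPP1 shared 56 with MMP1 on opposite strands and 0 with MMP10 and with MMP3. The sources used here do not say whether counting used strand, so reads of MMP1 and WTAPP1 from the shared stretches cannot be told apart without it. C10orf55 overlaps PLAU on the other strand, at 1.04 to 1.18 CPM, and SLC12A5-AS1 overlaps MMP9 on the other strand, at 0.458, 1.12 and 1.07 CPM. RN7SL368P lies within PLAUR on the same strand, over 277 bases, at 0.603, 1.24 and 1.64 CPM. Of the 36 pairs of members, MMP3 and MMP10 alone shared any 50-base stretch, 59 of them, all at least 1228 bases from the 3′ end of their full-length transcripts but 31 and 51 bases from it in short annotated transcripts.

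Among single cells, each cell was thinned to 5000 UMIs so that shares of cells compare at 1 depth, which used 5979 of 6123 cells in the FaDu library, 4657 of 4862 in the TPF library and 6954 of 7525 in the combination library. MMP1 was found in 17.0% (16.1 to 18.0) of FaDu library cells, 28.2% (26.9 to 29.6) of TPF library cells and 30.0% (28.9 to 31.1) of combination library cells. The unthinned shares were 42.6%, 55.7% and 51.0%. MMP3 was found in 2.44%, 7.37% and 7.78% of thinned cells and MMP10 in 6.19%, 9.19% and 9.95%. For these 3 genes the resistant libraries thus had more cells with a UMI at 1 depth. Such a share largely follows from the level in CPM and is not a separate measure of the difference. MMP13 was found in 7.48%, 6.03% and 6.07% of cells and MMP14 in 6.42%, 7.86% and 6.87%. MMP9 was found in 0.853%, 3.11% and 3.32%, and MMP7 in 0.602%, 0.129% and 0.144%, or 36, 6 and 10 cells.

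PLAU and PLAUR were found in most cells of every library. PLAU was found in 59.9%, 65.9% and 63.8% of thinned cells and PLAUR in 65.1%, 56.9% and 53.0%, in the order FaDu, TPF and combination. The libraries hold 1 cell line, so there was no cell type known to lack these genes. The share that free RNA alone would give was therefore not measured.

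Spread among cells was measured as the variance of thinned UMIs over their mean, which is 1 for counts that follow the same Poisson law in every cell. MMP3 was the most uneven member in all 3 libraries, at 2.90, 4.20 and 3.61. Single cells reached 98, 208 and 62 unthinned UMIs of MMP3, while the gene had no UMI in most cells. MMP1 was at 1.66, 3.19 and 2.78.

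PLAU had a variance over mean of 1.91, 2.78 and 2.51, above that of its receptor PLAUR at 1.63, 1.62 and 1.66. MMP10 was at 1.61, 2.01 and 1.68 and MMP13 at 1.49, 1.57 and 1.82. MMP14, at 1.00, 1.06 and 1.02, was close to the Poisson value, and MMP9 was at 1.10, 1.09 and 1.16. The measure is drawn towards 1 at a low mean, and MMP9 had only 54, 153 and 250 thinned UMIs. Its values therefore do not show that MMP9 was even among cells. Unthinned, the 1% of cells with most MMP9 held 28.0%, 21.6% and 21.4% of its UMIs. For PLAU these shares were 7.03%, 6.71% and 7.05%, though such a share is itself higher for sparse genes. For MMP7, with 36, 6 and 10 thinned UMIs and at most 1 in any cell, the measure could only come out near 1 and says nothing of its spread. Unthinned, 1% of FaDu library cells held 46.5% of the MMP7 UMIs, and single cells reached 10.

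**Figure D3:**
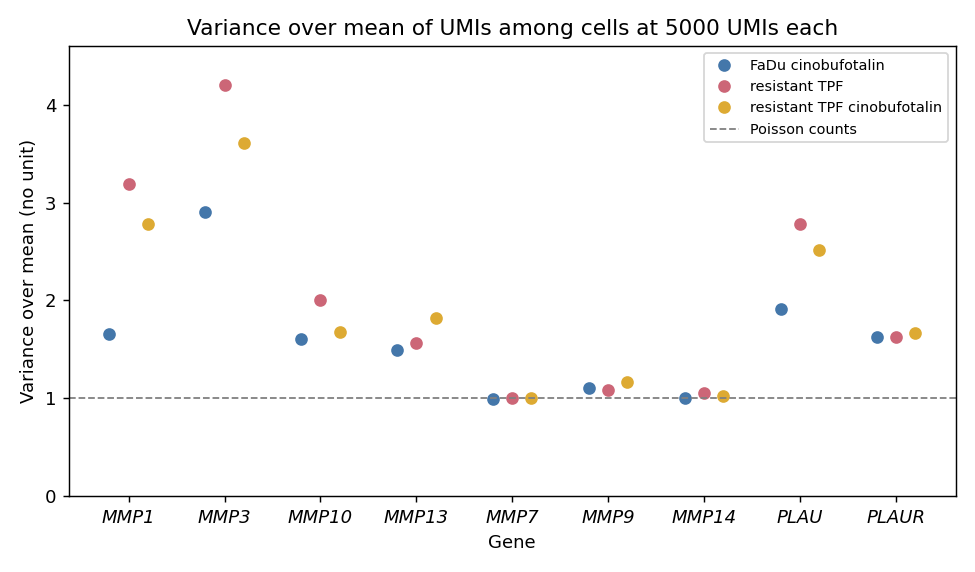
Variance over mean of UMIs of each gene among cells thinned to 5000 UMIs, in the 3 libraries; the dashed line at 1 marks Poisson counts. MMP3 reaches 4.20 in the resistant TPF library, and MMP9 and MMP14 sit near 1 in all libraries. MMP9 has 54 to 250 thinned UMIs per library, a low level that draws its points towards 1. MMP7 has at most 1 thinned UMI in any cell, so its points can only lie near 1.

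Pairs among MMP1, MMP3, MMP10 and MMP13 were mostly found in the same cells more often than their shares predict. MMP1 and MMP3 were found together in 66 FaDu library cells where the product of their shares predicts 24.9, in 236 TPF library cells against 96.9 and in 319 combination library cells against 162. These are 2.65, 2.44 and 1.97 times the prediction, and no interval reached 1. MMP1 with MMP10 gave 2.32, 2.09 and 1.90 times, and MMP10 with MMP13 gave 2.53, 2.09 and 2.71 times. MMP9 with MMP1 gave 0.345, 0.830 and 0.997 times, on 3, 34 and 69 cells that held both. With MMP3 it gave 2.41, 0.655 and 0.946 times, with MMP10 0.634, 0.450 and 1.17 times and with MMP13 0.525, 1.03 and 0.785 times. MMP7, found in 36, 6 and 10 thinned cells, was too sparse for such ratios to be read.

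For the 2 stromelysins, 26.0% of MMP3-positive FaDu library cells also held MMP10, against 5.69% of MMP3-negative cells. The same shares were 20.4% against 8.30% in the TPF library and 23.7% against 8.79% in the combination library. That is 4.21, 2.22 and 2.38 times the prediction. MMP3 and MMP10 share some transcript sequence, as given above, and its part in their joint detection was not tested, while MMP1 shares no 50-base stretch with either. MMP1 with MMP13 gave 1.60, 1.58 and 1.59 times, and MMP3 with MMP13 gave 1.83, 1.11 and 1.61 times, with an interval in the TPF library (0.705 to 1.67) that spans 1.

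MMP12, outside the 9 genes, was also found with MMP10 and with MMP13 more often than predicted. It was found with MMP10 at 4.07, 3.28 and 2.78 times the prediction and with MMP13 at 3.28, 3.03 and 4.32 times. These rest on 17 to 39 cells per library that held both genes. Over the 18 values per pair from the other depths and sets of cells given below, MMP12 with MMP10 ran from 1.86 to 4.67 times. With MMP13 the range was 1.12 to 5.67 times. For MMP3, which lies next to MMP12, it was 0 to 4.27 times, and for MMP1 0.851 to 2.25 times, so these 2 pairs were not above the prediction throughout.

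PLAU and PLAUR were each found in over 50% of thinned cells, so a ratio with either of them cannot reach 2, and it is not set beside those of the sparse pairs. PLAU with PLAUR gave 1.02, 1.05 and 1.05 times the prediction, and their correlation across thinned cells was 0.06, 0.13 and 0.10. For the sparse pair MMP1 and MMP13 the correlation was 0.10, 0.10 and 0.12. MMP1 with PLAU gave 1.03, 0.956 and 0.992 times, and MMP1 with PLAUR 0.983, 0.990 and 0.973 times. MMP10 with PLAU gave 1.10, 1.05 and 1.06 times, MMP13 with PLAU 1.11, 1.01 and 1.10 times, and MMP13 with PLAUR 1.07, 1.07 and 1.11 times. MMP3 with PLAU was below the prediction in the TPF library, at 0.779 times (0.670 to 0.900), and in the combination library, at 0.887 times (0.792 to 0.989), and at 0.926 times in the FaDu library with an interval from 0.736 to 1.15. MMP3 with PLAUR gave 0.831, 0.805 and 0.892 times, with an interval of 0.686 to 0.939 in the TPF library. PLAUR was found in 54.1% of MMP3-positive against 65.4% of MMP3-negative cells in the FaDu library. These shares were 45.8% against 57.7% in the TPF library and 47.3% against 53.5% in the combination library. The intervals take the predicted number as fixed and are wide for genes found in most cells, so they do not set the libraries apart.

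No doublet caller was run, so doublets remain among the cells, and their part in joint detection was not tested beyond leaving out cells with many UMIs. Leaving out cells over 2 times their library's median UMIs, thinning to 10000 UMIs, taking each called cell cycle phase alone and taking cells matched on MALAT1 left the 5 pairs MMP1-MMP3, MMP1-MMP10, MMP3-MMP10, MMP10-MMP13 and MMP1-MMP13 above the prediction in 90 of 90 values.

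**Figure D4:**
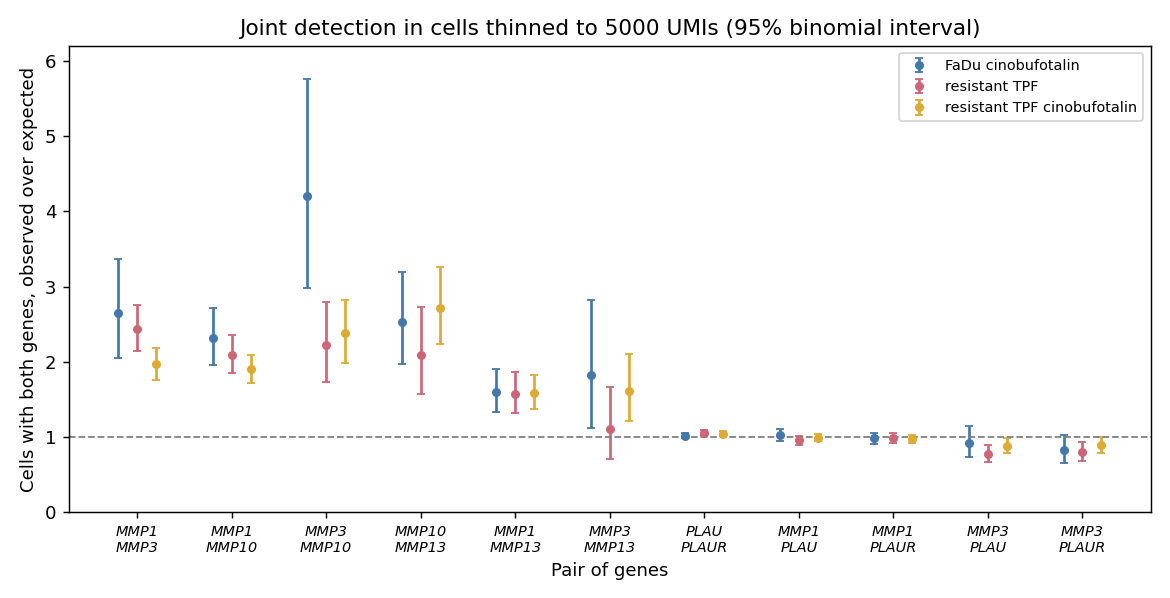
Number of cells with a UMI of both genes over the number predicted from the product of their shares, for 11 pairs of genes in the 3 libraries; cells thinned to 5000 UMIs, bars 95% binomial intervals, dashed line at 1. Pairs among MMP1, MMP3, MMP10 and MMP13 have intervals above 1 except for MMP3 with MMP13 in the resistant TPF library, and the plotted pairs with PLAU or PLAUR, whose ratio cannot reach 2, lie near or below 1.

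Genes most alike to each member were taken as the 5 with the highest Pearson correlation across thinned cells of log(1 + UMIs), averaged over the 3 libraries, among 10195 genes. All cells of a library share its preparation, and the values are descriptions. For MMP1 these were MMP3 (0.25), MMP10 (0.24), PTGS2 (0.14), MMP13 (0.11) and IL24 (0.11). PTGS2 is the inducible cyclooxygenase of prostaglandin synthesis, and IL24 a cytokine of the IL10 family. For MMP3 the list was MMP1, MMP10 (0.13), PTGS2 (0.10) and the hair keratin-associated genes KRTAP3-2 and KRTAP2-3 (both at 0.10), and for MMP10 it was MMP1, MMP13 (0.15), MMP3, IGFL1 (0.12) and S100A10 (0.09).

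MMP13 differed from its cluster neighbours in that 4 of its 5 most alike genes were interferon-induced, namely IFI6 (0.13), MX1 (0.12), IFIT1 (0.12) and IFI27 (0.12), after MMP10 (0.15). PLAUR also had interferon-linked genes among its 5, with OASL (0.22), IFIT2 (0.18), the antiviral protein gene ZC3HAV1 (0.17) and ISG20 (0.17), beside SFN (0.20), the 14-3-3 sigma gene of squamous cells. ISG20 had the lowest correlation of all genes with MMP1, at -0.13. The 5 of PLAU were the EGF receptor ligand gene HBEGF (0.18), TNFAIP2 (0.18), SOD2 (0.18), IL1A (0.17) and CXCL8 (0.17), among which are genes known to respond to inflammatory cytokines. PLAU and PLAUR shared no gene among their 5, but lists of 5 from 10195 genes are too short for this to set them apart. At 10000 UMIs per cell, 4 or 5 of the 5 genes were found again for MMP1, MMP3, MMP10, MMP13, PLAU and PLAUR. For MMP9 and MMP14, whose highest values were 0.06, 2 and 1 of the 5 were found again, and no likeness is read from them.

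Cell cycle phase, called from S and G2M gene lists, differed between the libraries, with 42.8% of FaDu library cells called G1 against 23.1% and 23.8% in the TPF and combination libraries, and 9.82% called S against 28.9% and 27.1%. MMP1 was nearly level over the phases, at 42.0 to 46.9 CPM in the FaDu library, 111 to 117 CPM in the TPF library and 104 to 121 CPM in the combination library. Its difference from the FaDu library was therefore present within each called phase.

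MMP3 was highest in S-called cells of the resistant libraries. It measured 30.1, 43.0 and 27.4 CPM in G1, S and G2M cells of the TPF library and 23.9, 40.5 and 28.2 CPM in those of the combination library. Without the 10 cells with most MMP3 UMIs in each library, S-called cells were still highest, at 33.8 CPM in the TPF library and 33.2 CPM in the combination library, against 22.9 and 24.1 CPM, and 21.3 and 27.3 CPM, in G1 and G2M. In the FaDu library MMP3 was highest in G1 cells, at 10.4 CPM against 7.26 and 6.84 CPM in S and G2M, and 7.09 CPM against 5.31 and 6.08 CPM without those cells.

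MMP10 was low in S-called cells of the FaDu library, at 7.40 CPM (6.05 to 8.96; 587 cells) against 16.8 and 18.0 CPM in G1 and G2M. In the TPF library the 3 phases were at 24.95, 24.0 and 28.96 CPM, and in the combination library at 24.97, 22.7 and 29.1 CPM. The gap between FaDu and resistant libraries in MMP10 was thus widest in S-called cells. PLAUR was below the FaDu library in every called phase, at 194 to 219 CPM in the TPF library and 182 to 194 CPM in the combination library against 268 to 295 CPM.

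**Figure D5:**
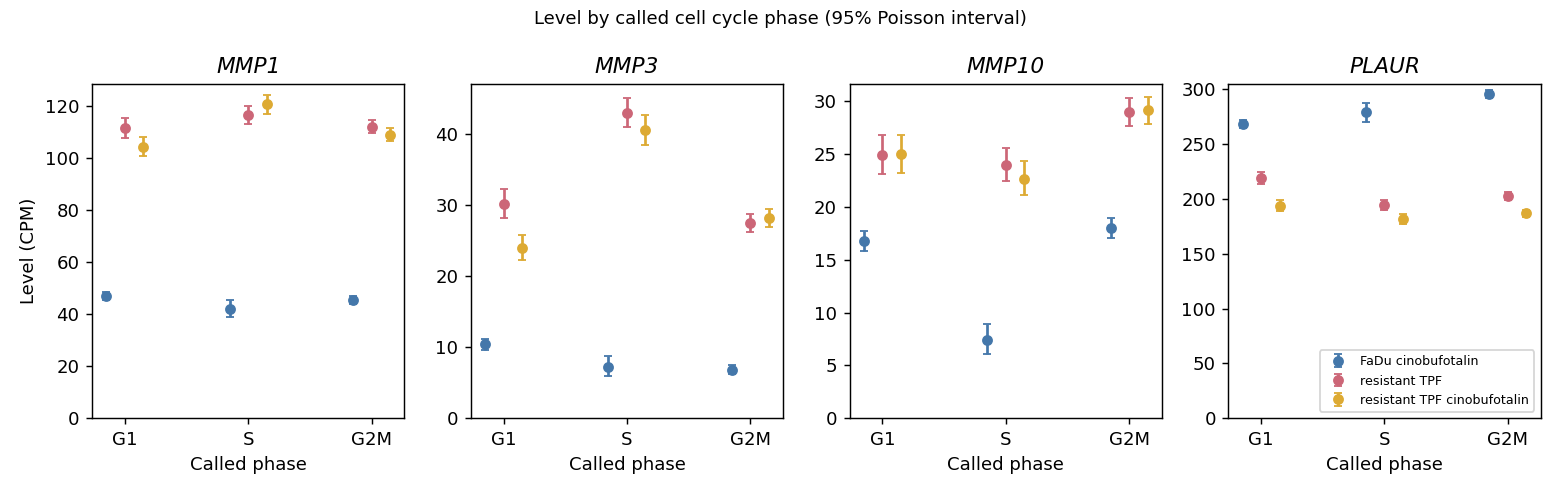
Level (CPM) of MMP1, MMP3, MMP10 and PLAUR in cells called G1, S and G2M in the 3 libraries; bars are 95% Poisson intervals and each panel has its own axis from 0. MMP10 drops to 7.40 CPM in S-called cells of the FaDu cinobufotalin library, and MMP3 peaks in S-called cells of both resistant libraries.

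Cells were matched on MALAT1 by taking those of at least 10000 UMIs in which it made up 0.3% to 1% and mitochondrial UMIs 2% to 8%, which left 881, 1706 and 2559 cells. In these cells MMP1 was at 46.2 CPM in the FaDu library, 112 CPM in the TPF library and 106 CPM in the combination library. MMP3 was at 8.12, 39.0 and 34.6 CPM, and PLAUR at 282, 191 and 179 CPM, so these differences from the FaDu library were also present in matched cells. PLAU was at 238, 298 and 258 CPM in matched cells, against 228, 336 and 286 CPM in all kept cells. Its differences from the FaDu library were thus smaller in matched cells. Within each library PLAU was higher in cells rich in MALAT1. Between the lowest class (under 0.05%) and the highest (2% and more) it went from 220 to 380 CPM in the FaDu library, from 326 to 438 CPM in the TPF library and from 274 to 406 CPM in the combination library. These classes held 75 to 1158 and 118 to 478 cells per library. Over the same classes PLAUR was at 290 and 200 CPM in the FaDu library but at 143 and 256 CPM in the TPF library and 148 and 248 CPM in the combination library. MMP14 was higher in cells below the median UMIs of their library, at 15.9, 21.8 and 15.9 CPM in the FaDu, TPF and combination libraries, than in the deeper cells, at 10.3, 12.9 and 11.8 CPM. MMP1 did not show this order in the FaDu and TPF libraries, at 45.8 and 114 CPM in shallow and 45.8 and 113 CPM in deeper cells, while the combination library had 121 and 106 CPM.

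The partners of these proteases were read from lists of related genes. Between the resistant libraries, the count past 1.5-fold was 0 in either direction among the 6 other MMPs tested, 9 MMP inhibitors and activators, 13 plasminogen system genes and 17 AP-1 and ETS factors. Over all genes tested the shares were 0.43% higher and 0.778% lower, so counts of 0 in lists of these sizes are near the background. The widest difference named was JUNB, an AP-1 subunit, at 84.8 CPM in the combination library against 118 CPM in the TPF library (log2 ratio -0.48, -0.52 to -0.45). TIMP2, a tissue inhibitor of metalloproteinases, was at 22.2 against 28.1 CPM (log2 ratio -0.34, -0.41 to -0.27).

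Of the 9 inhibitors and activators, 4 were at least 1.5-fold higher in the TPF library than in the FaDu library and 0 lower, where 41.0% of all genes were higher and 2.07% lower. The median log2 ratio was 0.52 against 0.45 for all genes. TIMP3, the matrix-bound tissue inhibitor, was at 14.6, 30.3 and 28.4 CPM in the FaDu, TPF and combination libraries. TIMP1 was at 222, 298 and 331 CPM, TIMP2 at 17.4, 28.1 and 22.2 CPM and TFPI2, a Kunitz-type inhibitor of plasmin, at 117, 203 and 202 CPM. SPOCK1, a testican proteoglycan, was at 6.52, 12.1 and 11.8 CPM. In the combination library 3 of 9 were higher and 0 lower, against 38.6% and 4.18% of all genes, with a median of 0.38 against 0.40. With TMM scaling none of the 9 was 1.5-fold higher in either pair, against 12.7% and 14.1% of all genes. Under it 2 were lower in TPF over FaDu and 3 in combination over FaDu, against 18.6% and 21.8%.

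In the plasminogen system the list held 19 genes, of which 13 were tested. PLG, plasminogen itself, was at 0, 2 and 4 UMIs. In TPF over FaDu 3 were at least 1.5-fold higher and 1 lower, against 41.0% and 2.07% of all genes, with a median of 0.08 against 0.45. In combination over FaDu 2 were higher and 1 lower, against 38.6% and 4.18%, with a median of -0.12 against 0.40. The lower gene was S100A10, which with annexin A2 forms a plasminogen receptor, at 4417 CPM in the FaDu library, 1992 CPM in the TPF library and 2362 CPM in the combination library (log2 ratios -1.15 and -0.90). Its partner ANXA2 was at 659, 585 and 468 CPM. PLAT, the tissue-type activator, was at 7.12, 14.2 and 11.8 CPM, and MRC2, a receptor that takes up collagen and binds the urokinase receptor, at 6.22, 9.85 and 8.64 CPM. With TMM scaling 0 genes of the list were higher, against 12.7% and 14.1% of all genes, and 4 were lower in TPF over FaDu and 7 in combination over FaDu, against 18.6% and 21.8%.

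Among inhibitors of urokinase, SERPINB2 was at 18.6 CPM in the FaDu library, 33.9 CPM in the TPF library and 32.3 CPM in the combination library, with log2 ratios over FaDu of 0.87 (0.80 to 0.93) and 0.80 (0.73 to 0.87). SERPINE2, protease nexin-1, was at 29.5, 43.0 and 41.8 CPM. The gene SERPINB5, maspin, of the same list but not counted here as an inhibitor of urokinase, was at 34.0, 30.6 and 28.0 CPM. With TMM scaling the ratios of SERPINB2 over FaDu were 0.30 and 0.28, and those of SERPINE2 were -0.02 in both pairs.

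Of 17 AP-1 and ETS factors, 7 were at least 1.5-fold higher and 1 lower in each resistant library against FaDu. Of all genes 41.0% were higher and 2.07% lower for TPF, and 38.6% and 4.18% for the combination. The list's medians were 0.37 against 0.45 for TPF and 0.40 against 0.40 for the combination. With TMM scaling 3 were higher and 1 lower for TPF, against 12.7% and 18.6% of all genes, and 2 higher and 3 lower for the combination, against 14.1% and 21.8%. JUN was at 96.4 CPM in the FaDu library, 387 CPM in the TPF library and 338 CPM in the combination library, FOS at 171, 431 and 382 CPM, and ATF3 at 114, 257 and 236 CPM. FOSL1, the AP-1 subunit FRA1, was at 822 CPM in the FaDu library against 493 and 462 CPM and was the lower gene of the list under CPM in both pairs (log2 ratios -0.74 and -0.83). Members of AP-1 therefore differed from the FaDu library in opposite directions. ETS1 was at 73.9, 113 and 113 CPM, with log2 ratios of 0.61 in both pairs, and 0.04 and 0.09 with TMM scaling.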

How the data were processed

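Droplet 3′ libraries (10x Genomics, Illumina NovaSeq, per the labels' protocols) of 3 samples, 1 per group, were analysed. The deposited files hold raw UMI counts per gene and barcode, made by the authors with Cell Ranger 7.0 on hg38, per the submitters' processing notes; the gene annotation and the handling of strand and introns were not stated there. The members and gene lists were chosen with earlier results of these data known.

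Kept cells had 1000 or more UMIs, 500 or more genes and no more than 20% mitochondrial UMIs. Their UMIs were added up by library and expressed as CPM, and log2 ratios were given 95% Clopper-Pearson intervals (Python 3.11.15, numpy 2.4.6, scipy 1.17.1, pandas 2.3.3). The 14656 genes with a mean of at least 1 CPM were counted at 1.5-fold. TMM factors came from edgeR 4.0.16 in R 4.3.3 and were 0.778, 1.15 and 1.12 for the FaDu, TPF and combination libraries. Cells were thinned to 5000 UMIs for shares, spread, joint detection and likeness. Phases were called with scanpy 1.11.5 from 42 S and 52 G2M genes.

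Genes named were all 9 members, genes overlapping them, the 5 most alike genes of each member with a mean of at least 5 CPM, up to 4 genes furthest from 0 per list and pair at a mean of at least 5 CPM, and always TIMP1, TIMP2, SERPINE2, SERPINB2, SERPINB5, FOSL1 and ETS1; another gene of this rule is not reported here. MMP2, MMP8, MMP12, MMP20, MMP27 and PLG were named in addition, after their values were seen. The lists held 16 other MMPs, 9 inhibitors and activators, 19 plasminogen system genes, 15 ADAM and ADAMTS proteases, 17 AP-1 and ETS factors and 26 invasion-associated genes, of which CCN1 and CCN2 were not found by symbol. A comparison of protein sequences was not run. Free RNA was not corrected for and no doublets were removed. The calculation of ratios was tested on simulated data.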

Additional observations from a re-analysis of the deposited data

How the results depend on the processing

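The count of members at least 1.5-fold lower in TPF over FaDu was 0, and became 1 without a minimum level and 2 with TMM factors or with ratios centred on the median gene (13.1% of all genes lower when centred). In combination over FaDu it was 1, and became 2 without a minimum, with TMM factors or with centring, and 0 at a 2-fold limit, without cells over 2 times the median UMIs, in cells called G1, in cells thinned to 5000 UMIs and with equal weight per cell; PLAUR lies close to the 1.5-fold limit. The cause was not tested. Of 378 alternative values of member log2 ratios, 236 lay within the counting interval of the reported value and 142 outside it. All 54 alternative shares of cells lay outside their intervals, since shares rise with the depth kept per cell, and 178 of 198 joint detection values lay inside. No paired analysis was possible because each group has 1 library. At this depth MMP7, with 47 to 258 UMIs per library, limits what can be said of it, and MMP9 gave no stable list of alike genes. Levels by called phase without the 10 cells with most UMIs, and the alternatives of joint detection, were chosen after the data were seen.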

Other observations

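The ADAM and ADAMTS proteases, which shed surface proteins or cut proteoglycans, were a list of 15 genes, of which 9 were tested. In TPF over FaDu 5 were at least 1.5-fold higher and 0 lower, against 41.0% and 2.07% of all genes, with a median log2 ratio of 0.76 against 0.45. In combination over FaDu 6 were higher and 0 lower, against 38.6% and 4.18%, with a median of 0.73 against 0.40. ADAM12 was at 5.96 CPM in the FaDu library, 22.5 CPM in the TPF library and 26.6 CPM in the combination library, and ADAMTS6 at 4.05, 11.03 and 13.1 CPM. ADAMTS1 was at 8.22, 17.8 and 15.4 CPM, and ADAM17, the sheddase of TNF and of EGF receptor ligands, at 22.1, 37.2 and 36.6 CPM. With TMM scaling 2 of the 9 were higher in TPF over FaDu and 3 in combination over FaDu, and 0 were lower in either, where 12.7% and 14.1% of all genes were higher and 18.6% and 21.8% lower.

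Of 24 invasion-associated squamous genes tested, 9 were at least 1.5-fold higher and 1 lower in TPF over FaDu, against 41.0% and 2.07% of all genes, with a median log2 ratio of 0.40 against 0.45. In combination over FaDu 9 were higher and 3 lower, against 38.6% and 4.18%, with a median of 0.42 against 0.40, so neither median stood far from that of all genes. INHBA, the activin A subunit gene, was at 4.37, 12.02 and 13.2 CPM in the FaDu, TPF and combination libraries. COL4A1, of basement membrane collagen, was at 2.496, 6.62 and 7.34 CPM, and TNC, the matrix protein tenascin C, at 6.61, 16.3 and 16.4 CPM. IL24, which was among the genes most alike to MMP1 across cells, was at 126, 273 and 231 CPM. With TMM scaling 3 genes were higher and 4 lower in TPF over FaDu, against 12.7% and 18.6% of all genes, and 5 higher and 5 lower in combination over FaDu, against 14.1% and 21.8%.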
